A study of Mus musculus with 12 samples.

Results

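Cdc45, Ccnd2 and Mnt are genes of DNA replication and cell cycle control in a table of 99 mouse genes measured by RNA sequencing, and they are described here as 3 of those 99. They were chosen by name for their known roles, and their levels were not used in the choice, though earlier results of these data were known. All 3 passed the filter on low values, 3 or more of the 12 libraries with an FPKM (fragments per length of exon, scaled to the library total) of 1 or higher, together with 67 other genes. The table held counts and FPKM values for 4 kinds of cultured cells, with 3 libraries from independent cultures of each. iMSCs are mesenchymal stem cells made from iPSCs through embryoid bodies with 10 ng/ml TGF-beta1 and 5 ng/ml bFGF, and were grown in low-sugar DMEM with serum. BMSCs are mesenchymal stem cells flushed from the femoral marrow of wild-type mice and grown in the same kind of medium. iPSCs were reprogrammed from fibroblasts by Sendai virus carrying human Oct4, Sox2, Klf4 and c-Myc, and were kept on mitomycin C-treated feeder cells with LIF and serum replacement. Fibs are fibroblasts from the ear skin of wild-type female C57BL/6 mice, grown in high-sugar DMEM with serum. Except between iMSCs and BMSCs, the medium differed along with the cell type, so medium and cell type cannot be told apart there. Between iMSCs and BMSCs, the TGF-beta1 and bFGF given to the iMSCs alone cannot be told apart from the cell type either. RNA of any feeder cells left among the iPSCs would be part of those libraries.

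A cell copies its DNA once per division. CDC45 joins the MCM ring and the GINS complex into the CMG helicase, which opens the double strand ahead of the copying enzymes, and its gene is mainly transcribed in dividing cells. Cyclin D2, the product of Ccnd2, pairs with CDK4 or CDK6 in G1 and starts the phosphorylation of the retinoblastoma protein, which otherwise holds back the E2F factors that transcribe replication genes. MNT is a repressor that binds E-box DNA together with MAX, and it competes with MYC for that partner and for those sites.

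In the table's coordinates, which for these genes follow GRCm38, Cdc45 (ENSMUSG00000000028) lies on chromosome 16 from 18780447 to 18811972 on the minus strand. Ccnd2 (ENSMUSG00000000184) lies on chromosome 6 from 127125162 to 127152193 on the minus strand. Mnt (ENSMUSG00000000282) lies on chromosome 11 from 74830920 to 74845725 on the plus strand. Exons of Cdc45 overlap exons of Ufd1 on the opposite strand, and exons of Ccnd2 overlap those of 9330179D12Rik and Gm43126 on the opposite strand. The sources used here do not give the counting's strand setting, so reads from these overlaps cannot be assigned to one gene. No exon of Mnt overlapped another annotated gene.

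The DNA around the start of transcription is shown for Cdc45 and Mnt, because MNT, MYC and E2F proteins act at such sequences. Each is a RefSeq window on GRCm38.p6 from 250 bases before to 50 bases after the annotated start, at chr16:18811923-18812222 on the minus strand for Cdc45 and at chr11:74830674-74830973 on the plus strand for Mnt. Capitals mark the letters ATTGG, which read CCAAT on the other strand, in Cdc45 and the letters CACGTG in Mnt.
Cdc45: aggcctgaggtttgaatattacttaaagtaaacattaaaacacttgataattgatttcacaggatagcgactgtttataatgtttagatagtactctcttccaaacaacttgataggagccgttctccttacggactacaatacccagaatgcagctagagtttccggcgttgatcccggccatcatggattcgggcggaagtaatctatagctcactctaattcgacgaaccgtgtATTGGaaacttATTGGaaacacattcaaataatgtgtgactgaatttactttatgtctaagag
Mnt: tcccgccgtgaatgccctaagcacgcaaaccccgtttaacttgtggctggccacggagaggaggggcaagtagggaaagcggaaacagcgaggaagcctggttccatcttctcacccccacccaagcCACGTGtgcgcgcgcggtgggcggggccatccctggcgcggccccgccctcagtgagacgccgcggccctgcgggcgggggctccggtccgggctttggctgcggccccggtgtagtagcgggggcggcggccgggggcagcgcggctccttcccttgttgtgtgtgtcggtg
3 motifs were searched on both strands: the E-box CACGTG, which reads the same on both strands, the E2F letters TTTCCCGC or TTTGGCGC, and the CCAAT box. The searched letters of 1 motif overlap no other at the matches found. The Mnt window held 1 E-box, whose first base is at -123 from the start, and the E-box was in 7.15% of the 32851 windows of this length. The Cdc45 window held 2 CCAAT boxes, at -13 and -2, and at least 1 such box was in 37.4% of all windows. GENCODE M21 places the Cdc45 start at 18811987, upstream of the start used here, so these offsets hold for the RefSeq start only. Neither window held the E2F letters searched, which were in 1.565% of all windows. A match describes the letters only, since binding was not measured.

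The implied library totals were 66135202 to 77382454 counts, and the 99 genes took 0.364 to 0.485% of them. iMSC replicate 2 stood apart from replicates 1 and 3. The chi-square per degree of freedom between replicates of a group, on counts divided by 4, was 131 and 153 for the pairs with iMSC replicate 2, and 3.58 to 10.6 for the other pairs. Few defining markers were among the 99 genes. Of 11 pluripotency markers only Cdh1 was present, at 0.312 to 0.673 FPKM in iMSCs, 0.0446 to 0.127 FPKM in BMSCs, 132 to 143 FPKM in iPSCs and 0.0364 to 0.117 FPKM in Fibs. Of 9 fibroblast and mesenchymal markers only Itga5 was present, at 79.4, 177 and 83.2 FPKM in iMSC replicates 1, 2 and 3, and at 61.4 to 63.1 FPKM in BMSCs, 56.0 to 60.5 FPKM in iPSCs and 35.7 to 40.0 FPKM in Fibs. None of 8 mesenchymal stem cell markers was in the table, so the labels iMSC and BMSC could not be checked against them. Each main edgeR test of the 3 genes with iMSCs is therefore given with and without iMSC replicate 2. So is the share of tested genes passing in either direction. Shares and counts by direction over all tested genes use all libraries.

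The 3 genes each had a different order across the cell types. Cdc45 was highest in iPSCs and lowest in Fibs, with a 14.8-fold range of group means. Ccnd2 was highest in Fibs, and its highest group mean was 4.56-fold the lowest. Its means in the other cell types were close together, though its iMSC libraries ran from 8.30 to 16.9 FPKM. Mnt varied least, with a highest mean, in iMSCs, 1.55-fold the lowest, in Fibs.

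**Figure D1:**
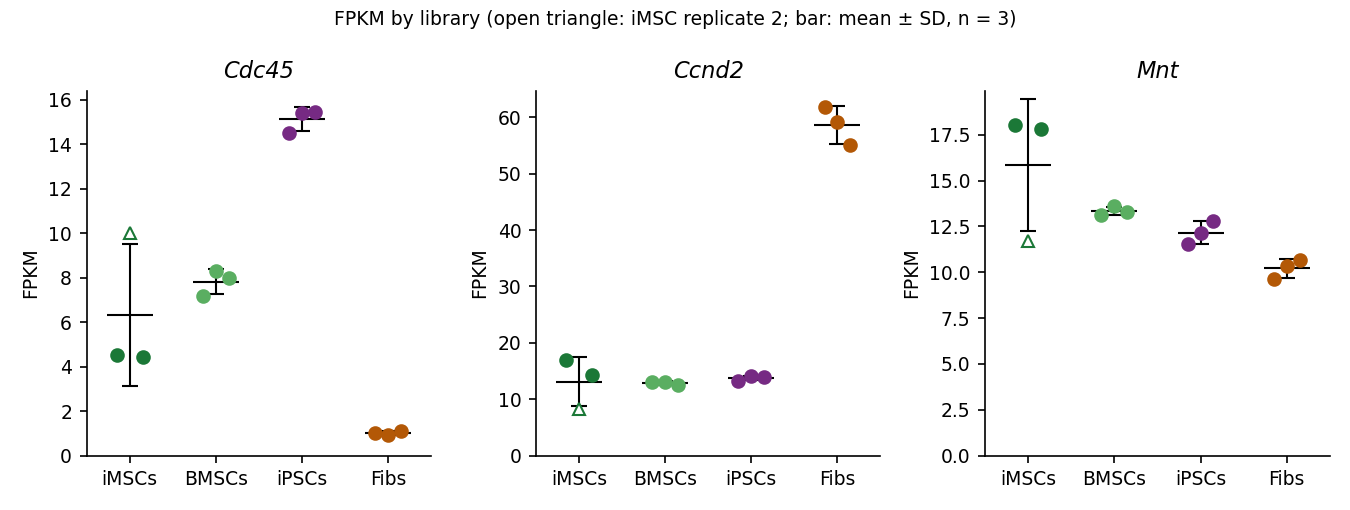
FPKM of Cdc45, Ccnd2 and Mnt (vertical axes, from 0) in each library of iMSCs, BMSCs, iPSCs and Fibs (horizontal axis). Points are libraries, the open triangle is iMSC replicate 2, and bars are the mean ± SD (n = 3). Cdc45 lies at 14.5 to 15.5 FPKM in iPSCs and 0.908 to 1.12 FPKM in Fibs, Ccnd2 at 55.1 to 61.7 FPKM in Fibs alone, and Mnt between 9.63 and 18.001 FPKM throughout.

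Cdc45 had 4.52, 10.0 and 4.46 FPKM in the iMSCs and 7.19, 8.30 and 7.98 FPKM in the BMSCs. It had 14.5, 15.4 and 15.5 FPKM in the iPSCs and 1.03, 0.908 and 1.12 FPKM in the Fibs. The iPSC libraries were all above every other library and the Fib libraries all below, while the iMSC libraries lay on both sides of the BMSC libraries. The means were 6.33 ± 3.20 FPKM in iMSCs, 7.83 ± 0.571 in BMSCs, 15.1 ± 0.551 in iPSCs and 1.02 ± 0.105 in Fibs (SD, n = 3), and without replicate 2 the iMSC mean was 4.49 FPKM. From low to high the order was Fibs, iMSCs, BMSCs and iPSCs, also without iMSC replicate 2. Of the neighbours in this order, iMSCs and BMSCs did not differ beyond their spread with all libraries. The Fib level rested on 753 counts summed over 3 libraries. Taking 4 counts as 1 fragment, counting error alone was 12.02 to 13.25% of the value in each Fib library, against a spread between the Fib libraries of 10.3% of the mean. In bulk RNA, fewer dividing cells and less Cdc45 RNA per cell cannot be told apart.

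Ccnd2 had 16.9, 8.30 and 14.2 FPKM in the iMSCs and 13.1, 13.1 and 12.5 FPKM in the BMSCs. It had 13.3, 14.1 and 13.9 FPKM in the iPSCs and 61.7, 59.2 and 55.1 FPKM in the Fibs. Every Fib library was above every other library, and the iMSC libraries spread across the BMSC and iPSC values. In iPSCs the mean was 13.75 ± 0.4115 FPKM (SD, n = 3). BMSC and iPSC libraries did not overlap, but the highest BMSC library and the lowest iPSC library were 13.1 and 13.3 FPKM. From low to high the means ran BMSCs, iMSCs, iPSCs and Fibs, and without iMSC replicate 2, where the iMSC mean was 15.55 FPKM, they ran BMSCs, iPSCs, iMSCs and Fibs. Among BMSCs, iMSCs and iPSCs no neighbours differed beyond their spread with all libraries. Ccnd2 was the best counted of the 3 genes in each library, with a counting error of 1.0 to 2.69%.

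Mnt had 18.001, 11.7 and 17.8 FPKM in the iMSCs and 13.1, 13.6 and 13.3 FPKM in the BMSCs. It had 11.6, 12.2 and 12.8 FPKM in the iPSCs and 9.63, 10.3 and 10.6 FPKM in the Fibs. iMSC replicates 1 and 3 were the highest libraries, iMSC replicate 2 fell within the iPSC range, and the 3 Fib libraries were below all others. The means were 15.8 ± 3.58 FPKM in iMSCs, 13.3 ± 0.239 in BMSCs, 12.2 ± 0.614 in iPSCs and 10.2 ± 0.519 in Fibs (SD, n = 3), and without replicate 2 the iMSC mean was 17.9 FPKM. The order from low to high was Fibs, iPSCs, BMSCs and iMSCs, with or without that library. With all libraries and library totals, Fibs and iPSCs were the only neighbours to pass the test, and their direction depended on the scaling, as given with that comparison. Without iMSC replicate 2 BMSCs and iMSCs passed as well, and under TMM scaling iPSCs and BMSCs did.

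Levels can be set beside each other between genes only per length, and the length chosen mattered. The deposited FPKM used the union of all annotated exons, 3506 bases for Cdc45, 9409 bases for Ccnd2 and 4627 bases for Mnt, where the longest transcripts are 2143, 6330 and 4590 bases. Per union of exons, Mnt was above Ccnd2 in BMSCs, at 13.3 against 12.9 FPKM. Rescaled to the longest transcript, Mnt was below Ccnd2 there, at 13.4 against 19.1 FPKM. The same turn of order held for the iMSC means, at 15.8 for Mnt and 13.1 FPKM for Ccnd2 per union of exons, and 16.0 for Mnt and 19.5 FPKM for Ccnd2 per longest transcript. In Fibs Ccnd2 was the highest and Cdc45 the lowest of the 3 genes under both lengths. The rescaling was chosen after seeing the data, and it leaves every comparison of 1 gene between cell types as it was.

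iMSC replicate 2 differed from replicates 1 and 3 in all 3 genes. On log2(FPKM + 1) it was above their mean by 1.01 in Cdc45, and 6 of the 70 tested genes differed more in size. In Ccnd2 the difference was -0.83 and in Mnt -0.57, with 10 and 21 genes differing more, and the median size over the tested genes was 0.43. Replicates 1 and 3 differed from each other by 0.01 in Cdc45, 0.23 in Ccnd2 and 0.01 in Mnt on that scale.

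Each pair of cell types was compared with edgeR's quasi-likelihood test on its own 6 libraries, with p-values adjusted by the Benjamini-Hochberg method over the 70 tested genes and a call at an adjusted p under 0.05. Positive log2 fold changes mean higher in the cell type named first. Comparisons that share a cell type share its libraries and are not independent of each other. Relative to library totals the median log2 fold change of all tested genes was -0.29 for iMSCs over iPSCs, 0.57 for iPSCs over Fibs and -0.26 for BMSCs over iPSCs. Scaling by TMM or median ratios, which centres the tested genes, moved these medians by 0.33 to 0.42, -0.43 to -0.46 and 0.19 to 0.31. In the other comparisons the medians moved by less than 0.1.

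In iMSCs over Fibs all 3 genes passed the test, 2 higher and 1 lower, where 55.7% of the tested genes passed, 27.1% higher and 28.6% lower. Cdc45 was 6.18-fold higher (log2 fold change 2.63 ± 0.38 SE, 95% interval 1.71 to 3.55, adjusted p = 0.00285), and 7 of the 70 genes had a larger change in size. Ccnd2 fell by 2.16 on the log2 scale (SE 0.28, 95% interval -2.85 to -1.47, adjusted p = 0.00209), with 11 genes changing more. Mnt was 1.55-fold higher (log2 fold change 0.63 ± 0.18 SE, 95% interval 0.19 to 1.08, adjusted p = 0.0254), with 38 genes changing more. Without iMSC replicate 2, where 67.1% of the genes passed, all 3 calls stood, at log2 fold changes of 2.13 for Cdc45, -1.92 for Ccnd2 and 0.81 for Mnt, with adjusted p = 5.51e-05, 1.25e-05 and 5.51e-05. The Mnt call was lost when any 1 of the other 5 libraries was left out, with adjusted p = 0.0696 to 0.0925.

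Against iPSCs, by library totals, only Cdc45 passed in iMSCs, in the lower direction, where 75.7% of the tested genes passed, 27.1% higher and 48.6% lower. Of the genes that passed, 19 were higher and 34 lower by library totals, and 29 higher and 26 lower by TMM. Cdc45 was at 0.419 of its iPSC level (log2 fold change -1.26 ± 0.34 SE, 95% interval -2.07 to -0.44, adjusted p = 0.0136). This call was lost by TMM scaling, at -0.78 (adjusted p = 0.117), and by median-ratio scaling, at -0.90 (adjusted p = 0.0516). It stood in DESeq2 with its own size factors, at -0.90 (adjusted p = 0.0254). Ccnd2 had a log2 fold change of -0.07 (95% interval -0.69 to 0.56, adjusted p = 0.854), an interval that holds a fold of 0.621 to 1.47. Mnt had one of 0.38 (95% interval -0.07 to 0.83, adjusted p = 0.107). Under TMM scaling Mnt passed instead, at 0.78 (adjusted p = 0.00199), and Ccnd2 turned direction without passing, at 0.33 (adjusted p = 0.17). Without iMSC replicate 2, where 81.4% of the genes passed, Cdc45 had -1.75 (adjusted p = 2.13e-06) and Mnt passed at 0.56 (adjusted p = 0.000195), while Ccnd2 stood at 0.18 (adjusted p = 0.075).

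Between iMSCs and BMSCs, the induced and the marrow-derived mesenchymal stem cells, 0 of the 3 genes passed in edgeR, where 17.1% of the tested genes did, 10.0% higher and 7.14% lower. The count was also 0 at an unadjusted p under 0.05, and 0 by DESeq2 and by limma. The log2 fold change was -0.30 in Cdc45 (95% interval -1.11 to 0.50, adjusted p = 0.571), 0.03 in Ccnd2 (-0.59 to 0.64, adjusted p = 0.956) and 0.25 in Mnt (-0.19 to 0.68, adjusted p = 0.378). These intervals hold folds of 0.462 to 1.42 for Cdc45, 0.665 to 1.56 for Ccnd2 and 0.878 to 1.61 for Mnt. 1 library decided this count. Without iMSC replicate 2 all 3 genes passed, at log2 fold changes of -0.80 in Cdc45 (adjusted p = 0.000308), 0.27 in Ccnd2 (adjusted p = 0.013) and 0.42 in Mnt (adjusted p = 0.000344), and 58.6% of all tested genes passed.

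**Figure D2:**
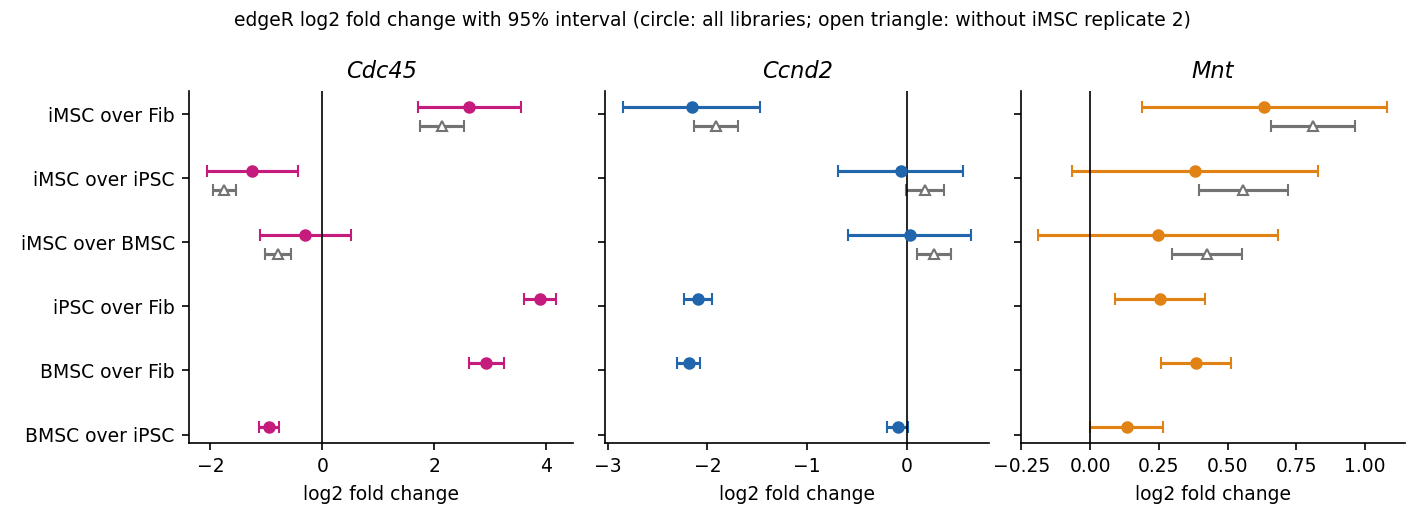
edgeR log2 fold change (horizontal axes) with its 95% interval for Cdc45, Ccnd2 and Mnt in the 6 comparisons (vertical axis, first cell type over second). Circles use all libraries and open triangles leave out iMSC replicate 2. The intervals with all iMSC libraries are the widest, and those of iMSC over BMSC include 0 for the 3 genes only while that library is kept.

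iPSCs over Fibs gave the largest change of Cdc45. All 3 genes passed, 2 higher and 1 lower, where 87.1% of the tested genes passed, 54.3% higher and 32.9% lower. By library totals 38 of the passing genes were higher and 23 lower, and by TMM 32 were higher and 30 lower. Cdc45 was 14.8-fold higher (log2 fold change 3.88 ± 0.12 SE, 95% interval 3.60 to 4.17, adjusted p = 1.33e-07), and 13 genes had a larger change in size. Ccnd2 was at 0.234 of its Fib level (log2 fold change -2.09 ± 0.06 SE, 95% interval -2.23 to -1.95, adjusted p = 8.62e-08). Mnt had a log2 fold change of 0.25 (SE 0.07, 95% interval 0.09 to 0.42, adjusted p = 0.0098), below the median of all tested genes. Its direction turned under TMM scaling, at -0.20 (adjusted p = 0.0287), under median-ratio scaling, at -0.18 (adjusted p = 0.0394), and under DESeq2's own size factors, at -0.18 (adjusted p = 0.0439). Whether Mnt was higher or lower in iPSCs than in Fibs therefore depended on what the libraries were scaled to.

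In BMSCs over Fibs all 3 genes passed, 2 higher and 1 lower, where 75.7% of the tested genes passed, 38.6% higher and 37.1% lower. Cdc45 was 7.63-fold higher (log2 fold change 2.93 ± 0.13 SE, 95% interval 2.63 to 3.24, adjusted p = 2.16e-07), with 4 genes changing more. Ccnd2 was at 0.220 of its Fib level (log2 fold change -2.19 ± 0.05 SE, 95% interval -2.30 to -2.07, adjusted p = 3.65e-09), with 7 genes changing more. Mnt was 1.31-fold higher (log2 fold change 0.39 ± 0.06 SE, 95% interval 0.26 to 0.51, adjusted p = 0.000286), with 41 genes changing more. The median size of change over the tested genes was 0.43 on the log2 scale.

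BMSCs set against iPSCs had Cdc45 lower and no call for the other 2 genes, where 78.6% of the tested genes passed, 27.1% higher and 51.4% lower. The split of passing genes was 19 higher and 36 lower by library totals, and 30 higher and 29 lower by TMM. Cdc45 was at 0.517 of its iPSC level (log2 fold change -0.95 ± 0.08 SE, 95% interval -1.13 to -0.77, adjusted p = 8.44e-06). Ccnd2 had a log2 fold change of -0.09 (95% interval -0.20 to 0.01, adjusted p = 0.0838) and Mnt one of 0.13 (95% interval 0.00 to 0.27, adjusted p = 0.062). Both moved with the scaling. Under TMM, Ccnd2 passed in the other direction at 0.21 (adjusted p = 0.0018) and Mnt passed at 0.44 (adjusted p = 0.000106).

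**Figure D3:**
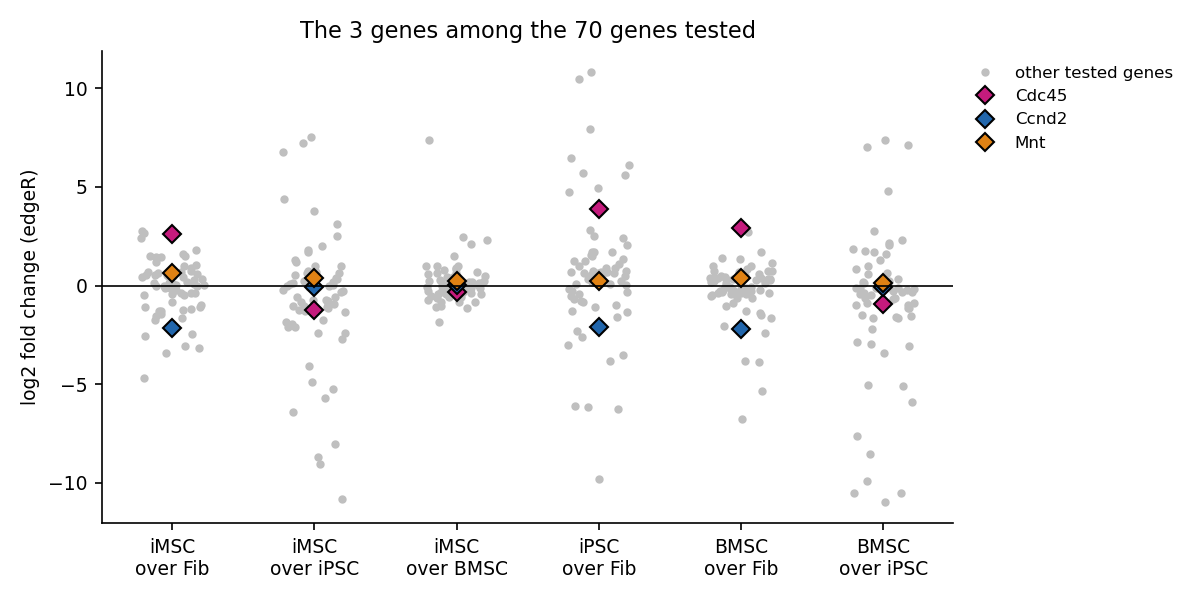
edgeR log2 fold change (vertical axis) of the 70 tested genes in the 6 comparisons (horizontal axis), with Cdc45, Ccnd2 and Mnt as coloured diamonds and the other genes as grey points. Cdc45 stands above every other gene in BMSC over Fib, and the 4 genes with a larger change in size lie below 0 there, and Mnt is farthest from 0 in iMSC over Fib, at 0.63.

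Ratios between 2 of the genes within a library do not depend on the library total. They are given as values, since an exact permutation test of 3 against 3 libraries cannot go below p = 0.1. Cdc45 over Ccnd2 was 0.268, 1.21 and 0.314 in iMSCs, 0.550 to 0.641 in BMSCs, 1.09 to 1.11 in iPSCs and 0.0153 to 0.0203 in Fibs. The Fib ratios were far below all others, and iMSC replicate 2 was above every iPSC library while iMSC replicates 1 and 3 were below every BMSC library. Cdc45 over Mnt was 0.251, 0.856 and 0.250 in iMSCs, 0.548 to 0.611 in BMSCs, 1.21 to 1.27 in iPSCs and 0.0878 to 0.107 in Fibs. Here iMSC replicate 2 lay between the BMSC and iPSC libraries. Ccnd2 over Mnt was 0.938, 0.709 and 0.799 in iMSCs, 0.936 to 0.996 in BMSCs, 1.09 to 1.16 in iPSCs and 5.18 to 6.41 in Fibs. Ccnd2 over Mnt was thus the ratio in which iMSC replicate 2 lay closest to the other iMSC libraries.

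**Figure D4:**
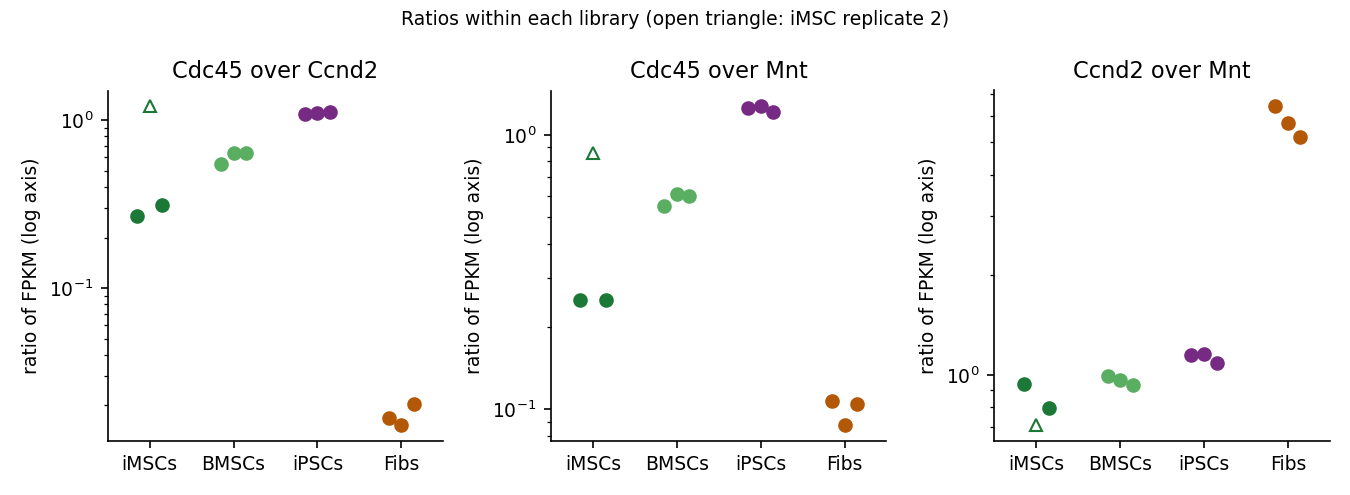
Ratio of FPKM (vertical axes, log scale) between 2 of the 3 genes in each library of iMSCs, BMSCs, iPSCs and Fibs (horizontal axis). Points are libraries and the open triangle is iMSC replicate 2, whose Cdc45 over Ccnd2 ratio of 1.21 lies above the iPSC libraries at 1.09 to 1.11.

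Other genes of the same pathways were mostly not among the 99. Of 52 replication genes listed, such as the MCM and GINS subunits, 1 was in the table, Cdc45 itself. Of 29 genes of G1 control 1 was present, Ccnd2, and of 15 genes of the MYC and MAX network 1 was present, Mnt. None of 22 genes of S phase to mitosis, such as Mki67 and Top2a, was present, so no other gene of these 4 lists could be set beside the 3. The table's own annotation assigned 13 further genes to the cell cycle, replication, division or proliferation, and 11 of these were tested. Fgf6 and Tspan32, the other two, were under the filter. The annotation text could be read for 69 of the 99 genes, so this list may be incomplete.

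Of the 11 annotated genes, 4 were higher, 2 lower and 5 did not pass in iMSCs over Fibs, where 55.7% of all tested genes passed, and without iMSC replicate 2 the counts were 5, 2 and 4, where 67.1% passed. Among the higher ones were Brat1, which takes part in the DNA damage response, Wdr77, a part of the complex that methylates spliceosome proteins, and Pemt, an enzyme of phosphatidylcholine synthesis. In iMSCs over BMSCs 1 was higher, 1 lower and 9 did not pass, where 17.1% of all tested genes passed. Mcts1, a translation factor and the lower one, averaged 5.82 ± 0.875 FPKM in iMSCs and 12.8 ± 0.344 FPKM in BMSCs (SD, n = 3 each), with a log2 fold change of -1.13 (adjusted p = 0.00718). Without iMSC replicate 2 the count in iMSCs over BMSCs was 2 higher and 2 lower, with Tom1l2 and Gnai3 added, where 58.6% of all tested genes passed.

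In iMSCs over iPSCs 4 of the annotated genes were higher, 7 lower and 0 did not pass. There 75.7% of all tested genes passed, 27.1% higher and 48.6% lower. Without iMSC replicate 2 Wdr77 no longer passed, which left 4 higher and 6 lower, where 81.4% passed. In BMSCs over iPSCs 2 were higher, 6 lower and 3 did not pass, where 78.6% of all tested genes passed, 27.1% higher and 51.4% lower. By TMM, all tested genes that passed were 29 higher and 26 lower in iMSCs over iPSCs, and 30 higher and 29 lower in BMSCs over iPSCs. The annotated genes were counted by library totals only, so their lean toward lower cannot be told apart from the scaling. Septin1, a cytoskeletal GTPase of the septin family, averaged 0.940 ± 0.312 FPKM in iMSCs, 0.814 ± 0.282 in BMSCs, 28.1 ± 0.573 in iPSCs and 0.894 ± 0.262 in Fibs. Its log2 fold change was 4.96 in iPSCs over Fibs (adjusted p = 3.89e-07). In iPSCs over Fibs 5 annotated genes were higher, 2 lower and 4 did not pass, where 87.1% of all tested genes passed, 54.3% higher and 32.9% lower. Bcl6b, counted in all comparisons with iPSCs, passed the filter on low values through the iPSC libraries only. It averaged 5.52 FPKM there, 0.326 FPKM in iMSCs, 0.160 FPKM in BMSCs and 0.0604 FPKM in Fibs. The filter therefore favoured its calls in those comparisons. In BMSCs over Fibs 4 were higher, 4 lower and 3 did not pass, where 75.7% of all tested genes passed. The count for Dynlt1c, 1 of several near-identical dynein light chain genes, is uncertain because reads may be shared among the copies.

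The tested genes nearest in pattern were found by the root mean square difference of log2(FPKM + 1), after each gene's mean over the 12 libraries was subtracted. Nearest to Cdc45 were Hnrnpd (0.52), an RNA-binding protein gene, Cox5a (0.64), a subunit of cytochrome c oxidase, and Lck (0.67), a kinase known from T cells. Hnrnpd averaged 14.6 ± 3.25 FPKM in iMSCs, 18.1 ± 0.611 in BMSCs, 52.2 ± 0.278 in iPSCs and 9.24 ± 0.485 in Fibs, in the same order of cell types as Cdc45. Lck had a higher mean in iMSCs than in BMSCs, at 1.11 against 0.562 FPKM, and so did not share that order. For Cox5a the means were 28.6 FPKM in iMSCs and 28.2 FPKM in BMSCs, without a call in edgeR (log2 fold change 0.02, adjusted p = 0.96). In Cox5a iMSC replicate 2 was above every BMSC library, and iMSC replicates 1 and 3 were below every BMSC library. Whether Cox5a shared that order therefore rested on iMSC replicate 2. With a pseudocount of 0.1 in place of 1, 2 of these 3 genes stayed, and Tbrg4 took the place of Cox5a.

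Nearest to Ccnd2 were Pparg (0.38), the nuclear receptor of fat cell formation, Acvr1b (0.41), an activin receptor, and Fer (0.53), a tyrosine kinase. With a pseudocount of 0.1 the same 3 genes stayed, in the order Acvr1b (0.43), Fer (0.52) and Pparg (0.65). Acvr1b averaged 18.2 ± 3.85 FPKM in iMSCs, 15.6 ± 0.465 in BMSCs, 16.0 ± 0.855 in iPSCs and 38.7 ± 1.19 in Fibs. Pparg was at most 1.06 FPKM in any library of the other cell types, and averaged 3.27 ± 0.697 FPKM in Fibs. Both were highest in Fibs, as Ccnd2 was. Pparg passed the filter on low values only with its Fib libraries, so the filter favoured its being highest there. In BMSCs over iPSCs Pparg was higher in edgeR (log2 fold change 1.76, adjusted p = 0.00523), which Ccnd2 was not (-0.09, adjusted p = 0.0838).

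Among the 3 genes nearest to Mnt were Brat1 (0.18) and Zfp385a (0.21), a zinc finger gene. Brat1 averaged 4.91 ± 0.219 FPKM in iMSCs, 4.04 ± 0.350 in BMSCs, 3.81 ± 0.350 in iPSCs and 3.28 ± 0.213 in Fibs, in the same order of cell types as Mnt. Of these, Brat1 passed in edgeR in iMSCs over iPSCs (adjusted p = 0.0344), but not in iMSCs over BMSCs (0.162) or BMSCs over iPSCs (0.477). In iMSC replicate 2 Brat1 was at its highest and Mnt at its lowest of the iMSCs. Zfp385a averaged 13.4 ± 0.774 FPKM in iMSCs, 14.2 ± 0.934 in BMSCs, 13.5 ± 1.302 in iPSCs and 11.8 ± 0.662 in Fibs. Its first 3 groups did not differ from each other in edgeR (adjusted p = 0.495 to 0.928), so their order was within the spread. The small differences of 0.18 and 0.21 go with a narrow range of levels in Mnt and Brat1. Among the 3 genes themselves the difference was 1.07 for Cdc45 and Mnt, 1.08 for Ccnd2 and Mnt, and 1.99 for Cdc45 and Ccnd2. Of 69 other tested genes ranked by nearness to Cdc45, Ccnd2 was number 63.

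**Figure D5:**
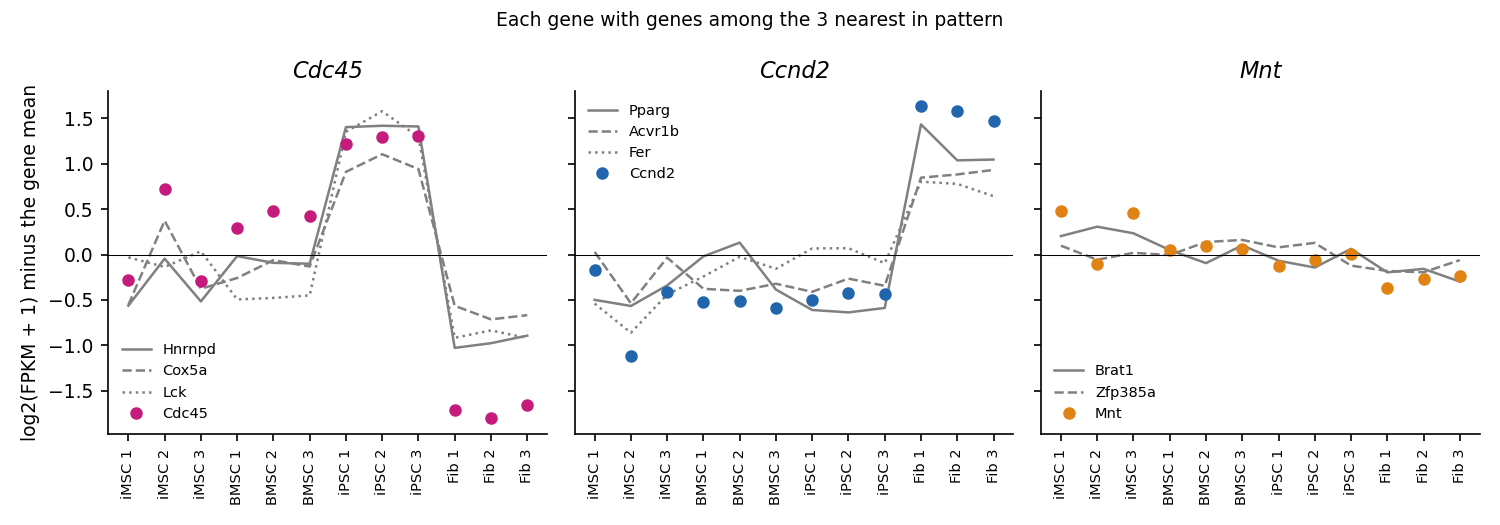
log2(FPKM + 1) minus the gene's mean (vertical axis) in the 12 libraries (horizontal axis), for Cdc45, Ccnd2 and Mnt as points and for genes among the 3 nearest to each as lines. iPSC libraries are the highest of the Cdc45 points and Fib libraries the lowest, and Fib libraries are the highest of the Ccnd2 points.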

How the data were processed

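RNA was sequenced from 12 libraries. By the submitters' notes the authors' tools were StringTie 1.3.4d, HISAT2 2.0.4 and cutadapt 1.9, on build mm9, and the study's methods name StringTie and Ballgown for FPKM. The deposited FPKM values equal count over exon-union length (GENCODE M21, GRCm38) and library total, within 1% in 71 of 71 genes compared. The deposited counts are whole numbers, not normalized by the authors. The sources used here do not say how reads were counted. Of 77 counts from 1 to 13, 61 were multiples of 4, so 4 counts were taken as 1 fragment for counting errors, which cover counting error only. The printed coordinates are the table's, and 79 of 99 genes match GENCODE M21.

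Library totals were computed from count, FPKM and length over 34 genes with at least 1000 counts (largest deviation 0.318%). Tests used edgeR 4.0.16 in R 4.3.3 (prior count 0.125) on the 70 genes whose FPKM reached 1 in 3 or more libraries. The other 29 genes were not tested. Alternatives were DESeq2 1.42.0, limma 3.58.1 (pseudocounts 1 and 0.1), other scalings and filters, a replicate block and leaving out libraries. The fitting was tested on simulated data with the same dispersion for every gene and no outlying library, which the iMSC libraries do not match. The members and lists were chosen with earlier results of these data known. Named were the 3 members, the genes of the lists or of the table's own cell cycle annotation, and the 3 tested genes nearest in pattern to each member. Tbrg4 was named outside this rule after its values were seen, and Cdh1 and Itga5 as cell type markers. Some genes within the rule are not reported here.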

Additional observations from a re-analysis of the deposited data

How the results depend on the processing

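Of 18 results (3 genes in 6 comparisons), each under 18 alternatives, 8 kept their direction and side of the threshold throughout: Cdc45 and Ccnd2 in iMSCs, iPSCs and BMSCs over Fibs, Mnt in BMSCs over Fibs and Cdc45 in BMSCs over iPSCs. Of the 324 values, 286 kept both, 9 lost a call, 14 gained one and 15 turned direction. The cause was not tested.

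Ccnd2 in iMSCs over iPSCs had a log2 fold change of 0.33 under TMM, 0.25 under median-ratio scaling and 0.25 under DESeq2's own size factors. Mnt there had 0.78, 0.70 and 0.70 under the same scalings and 0.38 with all 12 libraries in 1 fit (adjusted p = 0.0277). Cdc45 in iMSCs over iPSCs had -0.78 and -0.90 under TMM and median ratios, and kept its call at -0.90 under DESeq2's own size factors. Mnt in iPSCs over Fibs had -0.20, -0.18 and -0.18 under the 3 scalings, and 0.25 with all 12 libraries in 1 fit (adjusted p = 0.11). In BMSCs over iPSCs, Ccnd2 had 0.21, 0.10 and 0.10 under the 3 scalings and -0.095 in DESeq2 with library totals (adjusted p = 0.0148), and Mnt 0.44, 0.33, 0.33 and 0.13 (adjusted p = 0.0136 for the last). Ccnd2 in iMSCs over BMSCs had -0.026 in limma with a pseudocount of 1 and -0.032 with 0.1.

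The replicate numbers showed no regular pairing of the samples. Correlations ran from -0.388 to 0.436 over the 18 same-number pairs, and 5 were over 0.1. In 4 of the 18 the same number gave the best correlation. With 3 libraries per group this check cannot exclude a pairing. A replicate block gave 0.61 for Mnt in iMSCs over Fibs (adjusted p = 0.0604) and -0.030 for Ccnd2 in iMSCs over BMSCs, and changed no other call or direction.

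Leaving out 1 library at a time gave 0.53 to 0.81 for Mnt in iMSCs over Fibs. For iMSCs over iPSCs it gave -0.29 to 0.18 for Ccnd2 and 0.28 to 0.56 for Mnt. For iMSCs over BMSCs it gave -0.80 to -0.11 for Cdc45, -0.19 to 0.27 for Ccnd2 and 0.15 to 0.42 for Mnt. Mnt in BMSCs over iPSCs had 0.10 to 0.17, and passed without iPSC replicate 3 (adjusted p = 0.0326). Cdc45 in Fibs, at 57.0 to 69.2 fragments per library, was the value most limited by depth.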
